A study of Mus musculus with 8 samples.

Results

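Regions of open chromatin that appeared in Lats1-CKO mammary tumor cells, both luminal and basal-like, and that had no peak in any WT library were collected from 8 ATAC-seq peak lists. The peaks of all 8 libraries were merged where they overlapped by at least 1 bp, which gave 183194 regions. A region was a member when none of the WT libraries BM1, BM2, BM5 and BM6 had a peak in it and each of the Lats1-CKO libraries BM4, BM7 and BM8 did. A peak in BM3, the remaining Lats1-CKO library, was not required. The members were thus chosen by the measured peak calls themselves, and 2739 regions, or 1.50% of all, met the rule. They are called gained regions here. Their presence and absence in these 7 libraries is a description and not a finding.

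The cells were cultured lines from MMTV-PyMT mouse mammary tumors, strain FBV/N as labelled, in which the polyomavirus middle T oncogene drives the tumor in mammary epithelium. WT cells kept Lats1, and Lats1-CKO cells had lost it in the epithelial compartment. The Cre driver is not given in the sources used here. Cells high in CD49f were sorted by EpCAM, with luminal cells high and basal-like cells low in it, and grown briefly before ATAC-seq, so the gate describes the cells before this expansion. The WT luminal libraries were BM1 and BM5, and the WT basal-like ones BM2 and BM6. Of the Lats1-CKO libraries, luminal cells gave BM3 and BM7, while basal-like cells gave BM4 and BM8. All groups thus shared the PyMT oncogene and a period in culture. The study set aside a Lats1-CKO luminal replicate on quality grounds when it combined reads, without naming which. The labels do not say whether the 2 libraries of a group came from separate tumors, so p-values measure only the spread between these libraries. With BM3 outside the rule, BM7 was the only luminal library among the 3 that define the members.

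ATAC-seq uses the Tn5 transposase to cut DNA that is not wrapped in nucleosomes, so a peak marks an accessible promoter, enhancer or other regulatory element. LATS1 is a kinase of the Hippo pathway, best known for phosphorylating YAP and TAZ, which otherwise bind TEAD factors at enhancers, often beside AP-1. AP-1, a dimer of FOS and JUN family proteins, opens many epithelial enhancers, while SNAI and ZEB factors bind E-boxes and repress epithelial genes. CTCF binds insulator and loop-anchor sites, most of which are shared between cell types.

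The strongest gained regions are shown first, as examples, and most members were much weaker. Strength was the percentile of a peak's score among all peaks of its own library, because scores of peak callers rise with sequencing depth and so were not compared between libraries. Members were ranked by the smallest of their 3 percentiles. The first lay upstream of Cdk5rap1, a tRNA-modifying enzyme of mitochondria (chr2:154374906-154375191). The second lay upstream of Pparg, a nuclear receptor that drives adipocyte differentiation (chr6:115349495-115350014). The region nearest Krt78 lay between this keratin and Krt8 (chr15:101976059-101976477). Sequences here are of the plus strand of GRCm38.p6, the mm10 build, from RefSeq, and each run is at most the central 300 bases of its region. Capitals mark a match to any of 20 searched motif words. The first pair held none, and the Krt78 region held the SP and KLF word GGGCGGG on the other strand.
Cdk5rap1 region: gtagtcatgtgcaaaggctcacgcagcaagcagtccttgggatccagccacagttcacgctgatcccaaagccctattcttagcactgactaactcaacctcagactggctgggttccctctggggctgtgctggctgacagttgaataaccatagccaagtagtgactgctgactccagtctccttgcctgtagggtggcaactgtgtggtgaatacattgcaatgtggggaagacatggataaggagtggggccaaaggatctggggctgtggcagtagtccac
Pparg region: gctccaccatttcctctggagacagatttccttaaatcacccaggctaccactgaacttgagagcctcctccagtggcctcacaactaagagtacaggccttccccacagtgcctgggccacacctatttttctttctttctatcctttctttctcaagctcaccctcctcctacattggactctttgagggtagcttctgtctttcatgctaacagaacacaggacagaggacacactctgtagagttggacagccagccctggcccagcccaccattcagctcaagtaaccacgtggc
Krt78 region: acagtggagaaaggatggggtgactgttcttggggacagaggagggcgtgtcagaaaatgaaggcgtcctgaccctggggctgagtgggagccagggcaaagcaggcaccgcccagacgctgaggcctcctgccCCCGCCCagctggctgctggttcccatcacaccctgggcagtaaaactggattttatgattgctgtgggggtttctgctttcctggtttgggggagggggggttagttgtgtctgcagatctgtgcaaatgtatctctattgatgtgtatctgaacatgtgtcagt

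Another 3 strong members carried the AP-1 word TGAGTCA, in one orientation or the other. They are shown because AP-1 and TEAD words are the ones tied to YAP and TAZ. One lay in intergenic sequence far upstream of Sox9, a transcription factor of mammary progenitors (chr11:112631216-112631654). One lay in an intron of Rbms3, an RNA-binding protein and a YAP and TAZ target (chr9:116903254-116903671). The third lay upstream of the desaturase genes Fads1 and Fads2 (chr19:10137480-10137822). The Sox9 and Fads1 regions also held the TEAD word GGAATGT, which appears in them as its reverse complement.
Sox9 region: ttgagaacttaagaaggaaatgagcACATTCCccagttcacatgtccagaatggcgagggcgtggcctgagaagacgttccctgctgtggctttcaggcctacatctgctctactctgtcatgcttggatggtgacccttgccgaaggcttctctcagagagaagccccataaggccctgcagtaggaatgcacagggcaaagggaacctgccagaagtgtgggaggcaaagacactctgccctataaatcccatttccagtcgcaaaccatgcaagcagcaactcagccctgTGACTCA
Rbms3 intron region: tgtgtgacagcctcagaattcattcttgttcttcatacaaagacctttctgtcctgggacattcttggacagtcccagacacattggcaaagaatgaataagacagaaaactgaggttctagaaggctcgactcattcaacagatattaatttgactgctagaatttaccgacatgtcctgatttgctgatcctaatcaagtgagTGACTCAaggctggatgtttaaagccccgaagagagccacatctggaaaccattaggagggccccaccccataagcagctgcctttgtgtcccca
Fads1 upstream region: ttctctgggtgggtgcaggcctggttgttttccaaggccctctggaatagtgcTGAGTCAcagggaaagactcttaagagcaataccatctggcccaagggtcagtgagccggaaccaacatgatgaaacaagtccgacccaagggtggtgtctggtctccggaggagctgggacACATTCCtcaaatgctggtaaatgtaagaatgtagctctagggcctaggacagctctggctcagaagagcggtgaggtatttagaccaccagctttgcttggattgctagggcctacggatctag

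A last pair is shown for the CTCF motif and for a promoter-proximal member. Among gained regions of at most 300 bp outside exons, a strong one with a CTCF match lay in an intron 9827 bp upstream of a transcription start site (TSS) of Dcaf7, an adaptor of ubiquitin ligases (chr11:106026900-106027045). The other lay upstream of Twist1, a transcription factor of the epithelial-mesenchymal transition (EMT), at chr12:33956901-33957109, and held none of the words.
Dcaf7 upstream region: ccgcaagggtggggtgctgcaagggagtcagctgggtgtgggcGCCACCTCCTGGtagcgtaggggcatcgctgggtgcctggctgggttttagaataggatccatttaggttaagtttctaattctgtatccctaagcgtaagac
Twist1 upstream region: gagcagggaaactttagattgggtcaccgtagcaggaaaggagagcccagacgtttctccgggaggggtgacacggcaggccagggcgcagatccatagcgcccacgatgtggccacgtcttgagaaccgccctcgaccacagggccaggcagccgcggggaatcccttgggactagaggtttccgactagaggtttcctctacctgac

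Within the whole series, the gained pattern was a small corner. Of the regions without a WT peak, 55327 had a peak in 1 of BM4, BM7 and BM8, 13205 in 2 and 2739 in all 3. Regions with peaks in all 3 and in 1, 2, 3 or 4 WT libraries numbered 3710, 5503, 8926 and 22993. The opposite pattern, with 3 or 4 WT peaks and none in BM4, BM7 or BM8, held 1228 regions, and 121 of them had all 4 WT peaks. The libraries that the rule required were those with the most peaks: 86279 in BM4, 93467 in BM7 and 99022 in BM8, against 51497 to 72685 in the WT libraries and 14753 in BM3. The number of gained regions was 10679 without BM4 in the rule, 6385 without BM7 and 4389 without BM8. The numbers of gained and lost regions were therefore not comparable as they stood.

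**Figure D1:**
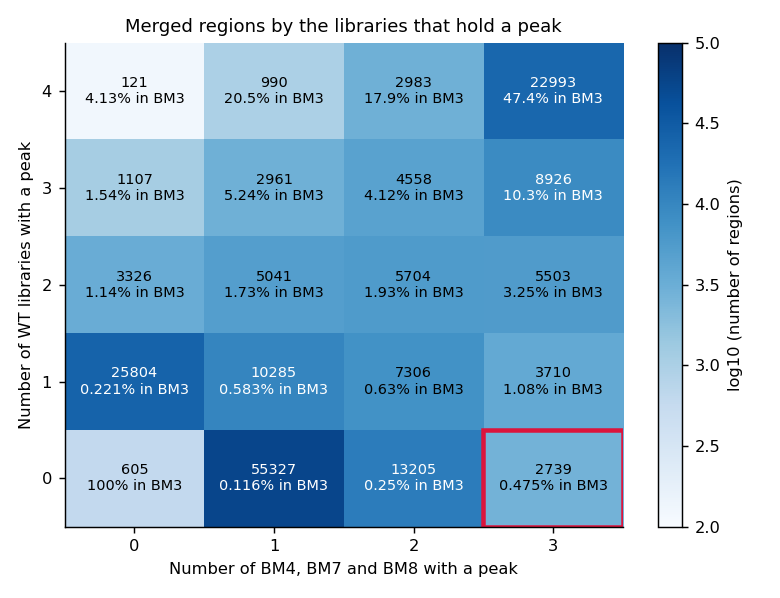
Number of merged regions by how many of the 4 WT libraries (vertical axis) and of the Lats1-CKO libraries BM4, BM7 and BM8 (horizontal axis) had a peak; color gives the number on a log10 scale, and the second line of each cell the share that also had a peak in BM3. The outlined cell holds the 2739 gained regions, of which 0.475% had a BM3 peak, while 47.4% of the 22993 regions in the upper right cell had one.

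Peak numbers were then made alike. When each of the 7 libraries other than BM3 gave only its 51497 highest-scoring peaks, 528 regions had the gained pattern. The opposite one, with 3 or 4 WT peaks, then held 2515 regions, above the gained number. Its stricter form, with all 4 WT peaks, held 499, so the order of the counts turned around only for the looser form. Of these 528, 295 overlapped a member and 233 overlapped a WT peak that the limit had dropped. In a stricter version, chosen after the data had been seen, all WT peaks were kept and only BM4, BM7 and BM8 were reduced. At 72685 peaks each, the number of the WT library with the most, 1286 gained regions remained. At 51497 peaks each, 295 remained. A peak that was not called can reflect shallow sequencing as well as closed chromatin, and the lists hold no read counts by which these could be told apart.

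The gained regions were weak peaks. Their median score percentile was 36.4 in BM4, 35.4 in BM7 and 47.2 in BM8. In regions with peaks in all 7 of these libraries, the medians were 81.7, 84.0 and 84.3. The smallest of a member's 3 percentiles had a median of 19.5, with quartiles of 10.3 and 32.7, and the highest was 83.0. All 3 percentiles reached 50 in 185 members, or 6.75%, and at least 1 was under 10 in 641, or 23.4%. BM8 gave the highest percentile in 47.1% of members, BM4 in 32.7% and BM7 in 20.2%. The regions were 195 bp wide at the median, against 330 bp for those with peaks in all 7 libraries.

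Strength in one library was only loosely related to strength in another. Over the members, Spearman's correlation of the percentiles was 0.0878 between BM4 and BM7, 0.130 between BM4 and BM8, and 0.322 between BM7 and BM8. Over the 22993 regions with peaks in all 7 libraries it was 0.538, 0.572 and 0.736. The highest correlation thus joined the luminal library BM7 with the basal-like library BM8 in both sets. BM7 and BM8 also shared the replicate number 2, while BM4 was replicate 1. BM4 and BM8 shared the population but not the replicate number, and BM4 and BM7 shared neither. The pair of the same population was thus only slightly above the pair that shared neither, in both sets. BM7 and BM8 were also the libraries with the most peaks. With 1 pair of each kind, the part of replicate, population or peak number was not tested. These are correlations across regions, which are not independent replicates, and both sets were formed from the same peak calls.

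**Figure D2:**
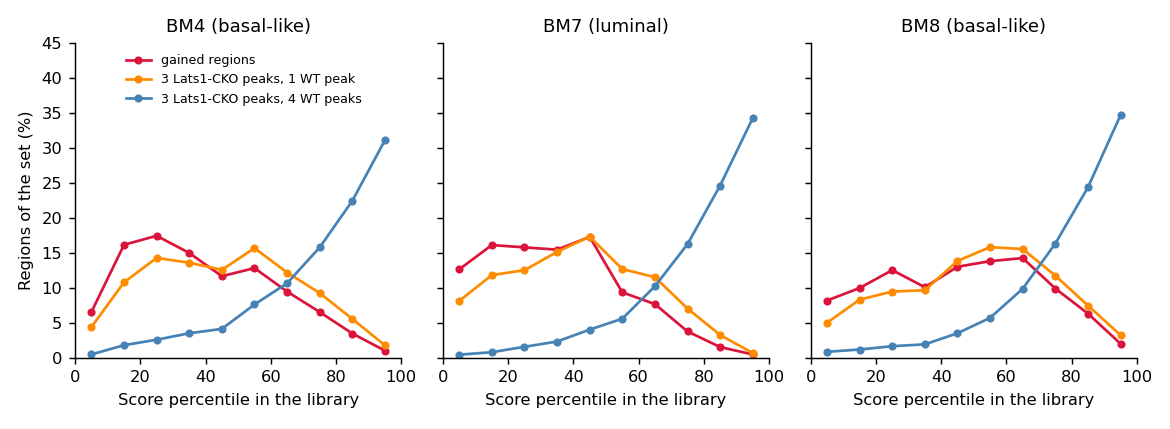
Share of each set of regions (vertical axis, percent) by score percentile within BM4, BM7 or BM8 (horizontal axis, bins of 10). Gained regions (red) had medians of 35.4 to 47.2 and regions with 1 WT peak (orange) of 43.3 to 51.8, while 31.1% to 34.7% of the regions with 4 WT peaks (blue) were in the top bin.

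Regions that just missed the rule for a WT peak were slightly stronger than the members, and those that lacked a Lats1-CKO peak were weaker. The 3710 regions with all 3 Lats1-CKO peaks and 1 WT peak had medians of 44.7 in BM4, 43.3 in BM7 and 51.8 in BM8, somewhat above those of the members. The lone WT peak was in BM1 in 1182, BM2 in 1191, BM5 in 377 and BM6 in 960 of them, with a median percentile of 27.8 to 30.0 in each. The WT peak that kept these regions out was thus mostly a weak one. On the other side, 7916 regions without a WT peak missed the rule for lack of a peak in BM4, 3641 in BM7 and 1648 in BM8. Their medians were 32.7 in BM4, 29.5 in BM7 and 38.3 in BM8, below those of the members in each. The weakest members had scores of 13 in BM4 and BM7 and 14 in BM8, at the lower end of the lists, whose lowest score was 13 in every library.

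BM3 gave an independent look, since the rule did not read it. Only 13 of the 2739 members, or 0.475% (exact 95% binomial interval 0.253% to 0.810%), had a BM3 peak. The share was 0.250% for regions without a WT peak and with 2 of the 3 others, and 0.116% for those with 1. It was 1.08% with 1 WT peak beside all 3, 3.25% with 2, 10.3% with 3 and 47.4% with 4. BM3 peaks were thus more frequent the more WT libraries had one. Among regions whose smallest percentile in BM4, BM7 and BM8 was from 40 to 60, BM3 had a peak in 2 of 317 members (0.631%), in 1.62% of those with 1 WT peak and in 25.2% of those with 4. From 10 to 20, the range with the most members, it had one in 0.797% of the members and 0.585% of the regions with 1 WT peak, so these 2 sets were in the other order, with 17.6% for those with 4. Without BM4 in the rule the members' share was 0.225%, and without BM2 it was 0.763%. The few peaks of BM3, 14753 in all, limit what it can show. The intervals cover counting error only.

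The 13 members with a BM3 peak were scattered over 8 chromosomes. The strongest was downstream of the start of Akr1b10, an aldo-keto reductase, with percentiles of 71.4 in BM4, 66.9 in BM7, 70.6 in BM8 and 43.9 in BM3. Next came an intronic region near Nrg2, an EGF-family ligand, with 57.0 in BM4, 54.7 in BM7 and 70.5 in BM8, and only 4.59 in BM3. Nearest protein-coding genes of others were Gm45261, Itpr1, Faiml, Slc35e4, Ccdc40, Zdhhc22, Tmem121, Tap2 and Lrrc73. None of the 13 held the AP-1 word and 5 held a CTCF match, against 26.1% and 12.2% of all members.

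Gained regions were mostly distal. Within 1 kb of a TSS of GENCODE M21 lay 470 of them, or 17.2%, against 19.01% of all regions and 45.5% of those with peaks in all 7 libraries. The share was 11.5% for regions with no WT peak and 1 of BM4, BM7 and BM8, and 13.4% for those with 2. Of the other members, 119 (4.34%) overlapped an exon, 1226 (44.8%) lay in introns and 924 (33.7%) between genes. The median distance to a TSS was 8702 bp, close to the 8906 bp of all regions. The place of the members in the genome was thus close to that of all regions and farther from TSSs than that of shared ones.

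Many gained regions were close to chromatin that was open in WT cells. The nearest region with a WT peak was 5082 bp away at the median. It was within 1 kb of 549 members (20.04%) and within 10 kb of 1958 (71.5%). For regions with no WT peak and a single Lats1-CKO peak, 18.1% lay within 1 kb.

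Motif words were sought in the central 400 bp, in either orientation. The AP-1 word was in 26.1% of the gained regions, 25.3% of all regions, 21.7% and 21.3% of the regions with no WT peak and 1 or 2 of the 3 Lats1-CKO peaks, and 28.9% of those with peaks in all 7 libraries. Away from TSSs, the share was 28.0% for members and 44.5% for regions in all 7. In the opposite set, with 3 or 4 WT peaks and no Lats1-CKO one, it was 44.5% over all distances. The gained regions were thus near the average, and the opposite set, without a peak in BM4, BM7 and BM8, held AP-1 words more often. Shares here are over regions, and no test was made of them, since the rule that formed the sets used the same libraries.

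The E-box CAGGTG, a word bound by SNAI and ZEB repressors among other factors, was less frequent in the gained regions. It was in 18.1% of them, against 24.9% of all regions, 24.8% of those in all 7 libraries and 44.5% of the opposite set. Regions with the 3 Lats1-CKO peaks and 1 WT peak were close to the members, at 18.7%, as were those without a WT peak and with 2, at 17.7%. With GC content weighted to that of the members, the share was 25.9% for all regions and 49.3% for the opposite set. The TEAD word GGAATGT was in 9.82% of members and 8.53% of all regions, and the RUNX word TGTGGTT in 13.8% and 12.4%. The word AGATAA of the GATA family was in 12.9% and 15.0%, and GGGCGGG in 7.01% and 9.25%. Mean GC content was 48.9% in the members and 48.6% in all regions.

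A CTCF match, a motif added after the data had been seen, was more frequent in the members than in regions of fewer Lats1-CKO libraries. It was in 12.2% of the gained regions, 5.42% of those with 1 Lats1-CKO peak and 7.33% of those with 2. With 1, 2 or 3 WT peaks beside all 3 it was in 16.2%, 18.4% and 17.6%, and in 12.5% of the regions in all 7 libraries. In the opposite set it was in 3.58%. The share varied little with strength, from 11.1% to 13.5% over 5 groups of members ranked by their smallest percentile. A CTCF match was more common where all 3 Lats1-CKO libraries had a weak peak than where 1 had it, also without any WT peak. With BM4, BM7 and BM8 reduced to 72685 peaks the share was 11.5%, and with 51497 it was 8.81% of 295 regions. Without BM4 in the rule it was 7.96%.

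**Figure D3:**
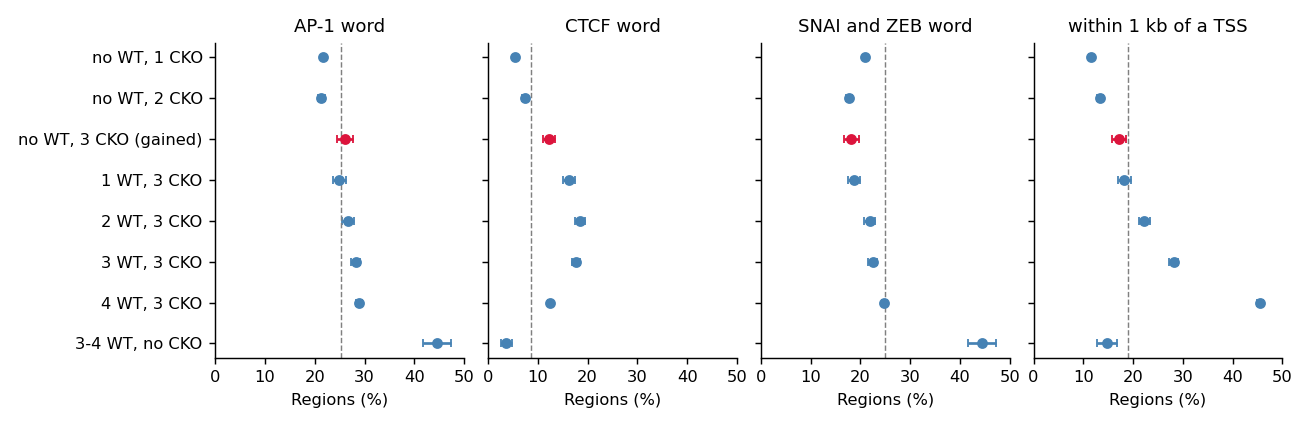
Share of regions (percent) with the AP-1 word, a CTCF match or the SNAI and ZEB word CAGGTG in the central 400 bp, and within 1 kb of a TSS, for sets defined by the number of WT libraries and of BM4, BM7 and BM8 (CKO) with a peak; bars are exact 95% binomial intervals and the dashed line is the share of all regions. Gained regions (red) were near the dashed line for AP-1 and TSSs, above it for CTCF (12.2%) and below it for CAGGTG (18.1%), while regions of WT libraries alone were at 44.5% for both AP-1 and CAGGTG.

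Peaks outside the gained regions, which the rule did not choose, were compared between 4 Lats1-CKO and 4 WT libraries by two-sided exact permutation tests. The promoter share was 24.8% in BM4, 25.6% in BM7, 24.0% in BM8 and 56.1% in BM3. In the WT libraries it was 29.1% in BM1, 28.5% in BM2, 26.8% in BM5 and 32.8% in BM6. With all peaks used, BM3 was far above all others, and the other 3 Lats1-CKO libraries were below every WT one. The difference in means was 3.28 percentage points (32.6% ± 15.6 against 29.3% ± 2.54, SD, n = 4 each, exact permutation p = 1). Without BM3 it was -4.53 points (exact p = 0.0571, 3 against 4 libraries).

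The AP-1 share of these peaks was 30.8% in BM4, 23.8% in BM7, 25.6% in BM8 and 23.4% in BM3, and 29.2%, 33.6%, 29.0% and 24.7% in BM1, BM2, BM5 and BM6. The groups overlapped, with a difference of -3.22 points (exact permutation p = 0.314). The CAGGTG word was in 21.3% in BM4, 27.3% in BM7, 21.9% in BM8 and 27.3% in BM3, against 29.5%, 27.5%, 28.5% and 25.5% in the WT libraries in the same order. Both Lats1-CKO basal-like libraries were below every other library. None of 23 measures, which were the promoter share, 20 motifs, GC content and repeat content, passed after Benjamini-Hochberg adjustment, and none had an unadjusted exact p under 0.05. Without BM3, 3 did before adjustment and none after it (lowest adjusted exact permutation p = 0.219). Between luminal and basal-like libraries, 1 of the 23 was under 0.05 before adjustment and none after it (lowest adjusted exact permutation p = 0.657). The smallest p this design allows is 0.0286. A measure alone at this floor could not pass the adjustment over 23 measures, so the adjusted outcome is no evidence that the groups were alike.

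The 10 gained regions that were strong in all 3 libraries were near genes of varied function. The Cdk5rap1 region had percentiles of 97.3 in BM4, 83.0 in BM7 and 95.04 in BM8. The Pparg region had 90.6, 82.6 and 86.2 in the same order. The Krt78 region, which is also 28005 bp from a TSS of Krt8, the luminal keratin, had 76.8, 78.6 and 88.0. All 10 were thus at a percentile of 74.6 or more in each library, with no WT peak called. The Ncam1 region, in an intron of a neural adhesion molecule, had 82.1 in BM4, 77.6 in BM7 and 88.3 in BM8, and held AP-1 and TEAD words. The Sox9 region was the most even, with 75.1, 75.8 and 75.7. The Rbms3 intron region had 74.6, 88.3 and 89.5, and its nearest WT-accessible region was 26063 bp away. The others were near Ap2a2, an adaptor of clathrin-coated vesicles, Dctn4, a dynactin subunit, Kif24, a kinesin of centrioles, and Snd1, a coactivator with nuclease folds. Of the 10, 5 held the AP-1 word, as did 26.1% of all members. In the strongest of 5 groups of members ranked by smallest percentile it was in 24.1%.

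**Figure D4:**
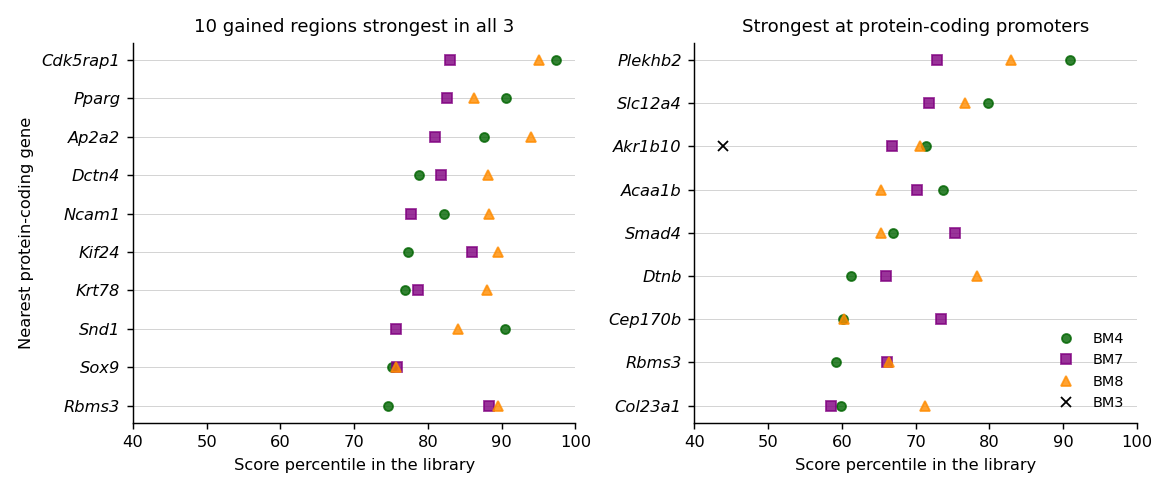
Score percentile (horizontal axis) in BM4, BM7 and BM8 of the 10 gained regions with the highest smallest percentile (left) and of 9 of the 10 strongest such regions within 1 kb of a protein-coding TSS (right), named by the nearest protein-coding gene; a cross gives BM3 where it had a peak. The left set spans 74.6 to 97.3 and the right set 58.6 to 90.9, and only Akr1b10 had a BM3 peak.

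The strongest members within 1 kb of a protein-coding TSS had lower percentiles than the 10 above, but the promoter share was no lower among strong members: it was 19.03% in the strongest of 5 groups ranked by smallest percentile and 15.7% in the weakest. The first lay over a TSS of Plekhb2, a pleckstrin-domain protein of endosomes, with 90.9 in BM4, 72.9 in BM7 and 83.0 in BM8. A region 265 bp from a TSS of Slc12a4, a potassium-chloride cotransporter, had 79.9, 71.8 and 76.6. One 632 bp downstream of a TSS of Smad4, the shared mediator of TGF-beta and BMP signals, had 66.9, 75.4 and 65.4. Several of these regions were beside WT-accessible chromatin: 124 bp away at Cep170b, 197 bp at Rbms3, 204 bp at Slc12a4 and 257 bp at Dtnb. The member at Acaa1b, a peroxisomal thiolase, was farther off, at 6079 bp. Col23a1, a transmembrane collagen, was the last of the 10 strongest, with 59.9, 58.6 and 71.2.

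The members were spread over 2244 nearest protein-coding genes, and 83.2% of these had only 1. Ets1, a transcription factor of endothelial and immune cells and of invasive tumors, was nearest to the most, with 7. Trib2, a pseudokinase, had 6, and Fam19a5, Ncam1, Smad7, Nckap5, Enox1 and Tacc1 had 5 each, of 60, 63, 57, 92, 54 and 39 regions of any kind with the same nearest gene. The genes with 4 included Jag1, a Notch ligand (of 76 regions), Nrg1, a ligand of ERBB receptors (of 86), the oncogene Myc (of 137) and Serpine2, a secreted protease inhibitor (of 37). Genes alone in large intergenic stretches are nearest to many regions of any kind, so the counts are given beside the number of all such regions.

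Ets1 was the nearest gene of 89 regions. Of these, 51 had a peak in BM4, 42 in BM7 and 46 in BM8, against 19 to 30 in the WT libraries and 3 in BM3. The Lats1-CKO libraries other than BM3 were above every WT library, as they were in total peaks. The 7 members ranged from 434 bp to 599624 bp from the TSS, most of them downstream of the gene. The strongest had percentiles of 62.4 in BM4, 43.3 in BM7 and 51.8 in BM8. Of the 7, 4 held the AP-1 word, as did 26.1% of all members, and 43 of the 89 regions had no WT peak.

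Trib2 on chromosome 12 was nearest to 97 regions, with 46 in BM4, 46 in BM7, 59 in BM8 and 18 to 36 in WT libraries. Its nearest member was in an intron 2953 bp from the TSS, at 52.6 in BM4, 51.2 in BM7 and 60.5 in BM8. Smad7, an inhibitor of TGF-beta signaling, was nearest to 57 regions, of which 35, 35 and 37 had peaks in BM4, BM7 and BM8 and 19 to 29 in WT libraries. One of its members, 30040 bp from the TSS, was among the stronger ones, at 73.6, 69.1 and 71.4. Another had 0.173 in BM4 beside 55.7 in BM7 and 63.7 in BM8. Regions near Myc were many, with 137 in all, and its 4 members lay 149597 to 861864 bp away. At Jag1, one member had 79.2 in BM4 and 84.0 in BM7 but 18.5 in BM8.

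Runs of at least 3 members with gaps of at most 50 kb numbered 52 and held 167 members, or 6.10%. Of these, 44 had 3 members, 5 had 4 and 3 had 5. The share rose when the rule asked for fewer libraries: it was 31.15% of 10679 regions without BM4, 18.32% of 6385 without BM7, 10.41% of 4389 without BM8 and 9.84% of 3700 without BM6. The most compact of the 3 with 5 members, chr6:72154122-72245223, spanned St3gal5, a ganglioside sialyltransferase, and Atoh8, a helix-loop-helix factor, over 91102 bp. It held 16 regions, of which 11, 12 and 12 had peaks in BM4, BM7 and BM8 and 5 or 6 in each WT library. The cluster at the start of Enox1, a cell-surface oxidase, also held 16 regions (chr14:77156665-77248837). No WT library and not BM3 had a peak in any of them, while 8 did in BM4, 8 in BM7 and 14 in BM8. The third, over Ift122, H1foo and Plxnd1 among others, held 19 regions, with 14, 9 and 12 in BM4, BM7 and BM8 and 2 to 6 in WT libraries.

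Among the clusters of 4, the most compact spanned 40751 bp of the Ugt1a locus, whose genes encode glucuronosyltransferases (chr1:88103828-88144578). All 5 of its regions had a peak in BM4, and 4 in BM7 and in BM8, and no WT library had one. The next lay at Ehd3, an endosomal ATPase, with 9 regions, of which 5, 5 and 7 had peaks in BM4, BM7 and BM8 and 1 to 3 in WT libraries. In all, 47 of the 52 clusters had a WT peak in some region within their span. With gaps of up to 20 kb, 1.75% of members were in clusters, and with 100 kb 12.9%. When BM4, BM7 and BM8 were reduced to 72685 peaks, 1.40% were, and with 51497 none of 295.

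The labelled cell types were checked by how many of 20 luminal and 20 basal-like genes had any peak within 1 kb of a TSS. Of the luminal genes, 19, 17, 10 and 18 had one in the luminal libraries BM1, BM5, BM3 and BM7. In the basal-like libraries BM2, BM6, BM4 and BM8, 16, 11, 7 and 10 did. Basal-like genes differed less, with 13, 12, 7 and 15 in the luminal and 13, 11, 12 and 11 in the basal-like libraries. Of 20 mesenchymal and fibroblast genes, 16 had one in BM4 and 12 in BM8, against 8 in BM7, 2 in BM3 and 7 to 10 in the WT libraries. Both Lats1-CKO basal-like libraries, which the rule required, were thus above all others for this list. In unsorted Lats1-CKO cultures, the study found more cells that it defined as fibroblasts by LATS1 and CD44, to various degrees. Within 1 kb of an Epcam TSS, BM4 and BM8 had no region with a peak, against 1 or 2 in every other library. The part of this list, or of such cells, in the choice of members was not tested.

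Genes were then read by lists chosen with earlier results of these data known. Of 21755 protein-coding genes, 825 (3.79%) had a gained region within 5 kb of a TSS and 4083 (18.8%) within 50 kb. The 5 kb share was 11.8% without BM4 in the rule, 7.72% without BM7, 5.77% without BM8 and 5.75% without BM1. None of 20 luminal and none of 20 basal-like and myoepithelial genes had one within 5 kb. Within 50 kb, the luminal genes with one were Krt8 and Krt18, 2 of 20, and the basal-like ones were Krt17, Oxtr, Itgb4, Nrg1 and Jag2, 5 of 20. The member near Krt18, 10504 bp downstream of its TSS, had percentiles of 65.7 in BM4, 49.98 in BM7 and 18.5 in BM8. The member near Krt17 was weak in all, at 18.0, 19.2 and 4.05.

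EMT transcription factors had the largest share within 5 kb, 4 of 10, each with 1 member within 1 kb of a TSS. The member over a TSS of Zeb1, a repressor of Cdh1, had percentiles of 45.1 in BM4, 11.6 in BM7 and 13.1 in BM8. At Zeb2, its paralog, they were 14.5, 9.77 and 13.7. The Twist1 member had 40.0, 9.77 and 21.9, and that of Tcf4, an E-protein partner of TWIST factors, 5.71, 46.2 and 67.8. All 4 were thus weak in at least 1 library, and the nearest WT-accessible region was 606 bp away at Zeb1, 182 at Zeb2, 319 at Twist1 and 975 at Tcf4. WT libraries also had peaks near these genes: within 5 kb of a Zeb2 TSS, the WT libraries had 3 to 5 regions with a peak, BM4 had 8, BM7 had 5 and BM8 had 6. Zeb2 has 29 TSSs in the annotation and Tcf4 58, against a median of 3 for all protein-coding genes, while Twist1 has 1 and the list a median of 1.5. Per 100 regions within 5 kb, 7.14 near the EMT factors were members, against 1.48 near all protein-coding genes. Near immune genes, which the cultures should lack, the value was higher, at 16.7, from 2 members among 12 regions. It was 3.23 near endothelial genes and 3.03 near genes of absent tissues. Leaving out a library never tightens the rule, so the count could hardly fall. It was 4 without each of 7 libraries and 5 without BM4. With an equal number of highest-scoring peaks, or only peaks above their library's median score, it was 0. With BM4, BM7 and BM8 reduced to 72685 peaks, no EMT factor had a member within 5 kb, against 1.84% of all genes, and 2 had one within 50 kb.

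Among 22 YAP and TAZ targets, Amotl2, Rbms3 and Myof had a member within 5 kb, and 13 (59.1%) had one within 50 kb, against 18.8% of all genes. Amotl2 encodes a junction protein that binds YAP, and Myof a membrane repair protein. The other 10 within 50 kb were Ajuba, Lats2, Nuak2, Tgfb2, Crim1, Fjx1, Nt5e, F3, Asap1 and Foxf2. Target genes had more regions of any kind around them, with a median of 25.5 within 50 kb, against 13 for all genes. Per 100 regions, 2.78 near these targets were members, against 1.67 near all protein-coding genes. With the reduction to 72685 peaks, 7 targets (31.8%) had a member within 50 kb, against 9.47% of all genes, and with 51497 peaks 4 (18.2%) against 2.56%, but so did 3 of 10 endothelial genes (30.0%). Those 4 targets were Nuak2, Fjx1, Nt5e and Rbms3. The Rbms3 promoter member, whose center was just upstream of a TSS, had 59.3 in BM4, 66.1 in BM7 and 66.4 in BM8. At Amotl2 the values were 47.7, 12.1 and 24.3, and at Myof 21.6, 3.97 and 33.3.

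Of 7 genes that the study assayed as repressed by NCOR1, none had a member within 5 kb. This list was chosen by the study with these cells, so it is no independent evidence. The study compared ATAC-seq signal between WT and Lats1-CKO luminal cells at representative genes and reported more accessible chromatin without Lats1. The rule here reads peak calls, and it also drops any region with a WT basal-like peak. Near a TSS, within 1 kb, all 7 genes had a peak in BM2 and 6 in BM6, both WT basal-like. Within 50 kb, Fads1, Col5a1 and Oxtr had a member (42.9%, against 18.8% of all genes). The region shown above, 45066 bp upstream of Fads1, which encodes the delta-5 desaturase, was strong, at 68.0 in BM4, 87.5 in BM7 and 88.0 in BM8. Col5a1, a fibrillar collagen, had a member 11511 bp upstream at 73.0, 41.2 and 65.9, and a weaker one downstream. Oxtr, the oxytocin receptor of myoepithelial cells, had one at 21.6, 3.11 and 49.4. Sema6a, Ccna2, Pdgfrb and Twist2 had none within 50 kb. Within 5 kb, the Col5a1 TSSs had 3, 1 and 5 regions with a peak in BM4, BM7 and BM8 and 0 or 1 in each WT library, none of them meeting the rule.

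Among 14 TGF-beta genes, 2 had a member within 5 kb (14.3%, against 3.79% of all genes), Smad7 among them. The Smad7 region, 3660 bp downstream of a TSS, had 35.6 in BM4, 9.16 in BM7 and 64.1 in BM8. Of 20 mesenchymal and fibroblast genes only Col6a3 did, with 17.3, 38.5 and 80.1 in a region 4189 bp from a TSS. Of 13 AP-1 genes only Mafk did, a small MAF protein, while Fos, Fosb, Fosl1, Jund and Atf3 had a member within 50 kb. None of 17 Hippo pathway genes had a member within 5 kb. Within 50 kb, Lats2, Stk4, Yap1 and Tead4 had one (23.5%), near the 18.8% of all genes. Lats1 itself had peaks within 5 kb of its TSSs in every library but BM3, and none was gained. A peak there does not test the deletion.

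Genes of cells that the cultures should lack had members as well. Of 12 immune genes, 2 had one within 5 kb (16.7%), Csf1r among them, of 10 endothelial genes Erg (10%), and of 14 genes of absent tissues 1 (7.14%). Within 50 kb the counts were 3, 4 and 5, or 25%, 40% and 35.7%. Per 100 regions within 50 kb, 3.49 near endothelial genes and 3.15 near absent-tissue genes were members, more than near the YAP and TAZ targets. The region at Csf1r, the receptor of a macrophage growth factor, had 64.5 in BM4, 12.6 in BM7 and 25.2 in BM8, and that at Erg, an ETS factor of endothelium, had 10.3, 46.5 and 72.1. Of the immune list, 0 to 4 genes had any peak within 1 kb of a TSS in a library, and of the endothelial list 0 to 5. For the immune list, BM4 had 3, BM7 3 and BM8 4, against 1 or 2 in each WT library and 0 in BM3, so the Lats1-CKO libraries that the rule required were above the WT ones. For the endothelial list, they had 5, 4 and 3, against 1 to 4 in the WT libraries and 0 in BM3. The part of such cells in the members was not tested.

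**Figure D5:**
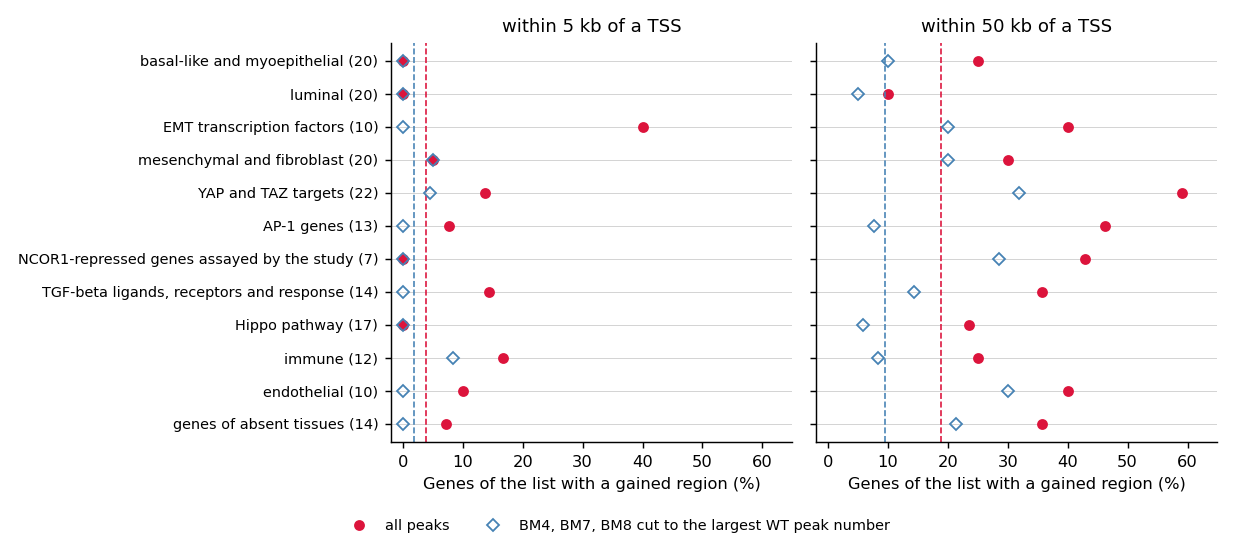
Share of the genes of each list (list size in parentheses) with a gained region within 5 kb (left) or 50 kb (right) of a TSS; red circles use all peaks, and blue diamonds use BM4, BM7 and BM8 reduced to the peak number of the largest WT library. Dashed lines are all protein-coding genes, at 3.79% and 18.8% with all peaks and at 1.84% and 9.47% after the reduction; EMT factors fell from 40.0% to 0% on the left, and YAP and TAZ targets stood at 59.1% and 31.8% on the right.

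Chromosomes held unequal shares. Chromosome 12 had 6.46% of the members and 4.33% of all regions, a ratio of 1.49. Ratios were 1.31 for chromosome 17, 1.29 for chromosome 11 and 1.27 for chromosome 15, and 0.607 for chromosome 13 and 0.653 for chromosome 4. Chromosome 12 had 2.23 members per 100 regions and chromosome 13 had 0.907. Outside the members, BM4 had 4.46% of its regions on chromosome 4, against 5.93% to 6.855% in the WT libraries, BM7 and BM8. On chromosome 13 it had 3.75%, against 4.61% to 4.86% in the same libraries, and on chromosome 15 4.955%, against 3.88% to 4.24%. BM3 was also below those libraries on chromosome 4, with 5.03%, and on chromosome 13, with 3.57%. On chromosome 15 it had 4.24%, unlike BM4. Chromosome 12 went the other way, with 3.60% in BM4 against 3.75% to 4.88%. The lists do not give DNA copy number, which also changes how many peaks are called, and its part in these shares was not tested.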

How the data were processed

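ATAC-seq peaks of 8 libraries, 2 per group, were analysed. The submitters' processing notes name cutadapt, Bowtie 1.0.0, Picard 2.3.0, MACS2 2.1.1.20160309 and the build mm10, and the study's methods give another version of MACS2. The deposited lists give each peak's position and a whole-number score. What it is was not stated in the sources used here, and it was taken to be the peak caller's score, higher for stronger evidence, so all statements on strength rest on this reading. Peaks were called per library. The lists hold no read counts, so the depth of each library is unknown, and the number of peaks stands in for it.

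Peaks were merged at 1 bp of overlap. Scores were turned into percentiles within a library. Transcription start sites were those of GENCODE M21, and sequence was GRCm38.p6. Motifs were searched as exact words, on both strands of the central 400 bp, 19 of them fixed with the design and CTCF added after the data had been seen. GC and repeat content and the reduced numbers of Lats1-CKO peaks were added likewise. Shares over regions are given with exact (Clopper-Pearson) 95% intervals and no test. Library values outside the gained regions were compared by two-sided exact permutation tests with Benjamini-Hochberg adjustment over 23 measures. The procedure was tested on simulated data. The work used scipy 1.17.1, numpy 2.4.6, pandas 2.3.3, matplotlib 3.10.9 and Python 3.11.15.

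The members and gene lists were chosen with earlier results of these data known. Named genes were those nearest to the 10 strongest members and the 10 strongest promoter members, the 10 genes nearest to the most members, the genes of the 5 largest clusters, and list genes with a member within 5 kb, with all NCOR1-repressed genes assayed by the study. Members with a BM3 peak, the Dcaf7 region, list genes named at 50 kb and genes with 4 members beyond the 10 were chosen after their values were seen. Alternatives were peak number, score limit, BM3 peak required, promoter distance, motif window, cluster gap and leaving out each library. A few members and list genes are not reported here.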

Additional observations from a re-analysis of the deposited data

Results flagged for a closer look

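In groups of 4 libraries, a library was singled out when its gap to the nearest other, divided by the range of the group, was above the 95% critical value of Dixon's ratio. Chance does so in about 1 in 20 groups, and 46 were examined, on peaks outside the gained regions. BM3 stood apart among the Lats1-CKO libraries in 7 measures. Within 1 kb of a TSS lay 56.05% of its peaks, and its mean GC content was 57.82%. The words GGGCGGG of SP and KLF factors (36.15%), CCGGAAG of ETS factors (13.1%) and the word of CRE-binding factors (2.70%) were more frequent than in the other 3. The homeobox word TAATTA (3.43%) and the SRF motif (1.63%) were less frequent. BM3 also had the fewest peaks, 14753. Among an equal number of the strongest peaks of every library, 62.5% in BM3 lay that close to a TSS, against 43.5% to 55.7% in the others.

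Among the WT libraries, BM5 had the lowest share of the ETS word CAGGAAG (17.9%) and the highest repeat-masked share (15.9%). BM6 had the highest share of CCGGAAG (6.98%).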

How the results depend on the processing

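Of 148 values recomputed under other settings, 82 stayed within the limits set for them, 65 moved and 1 reversed. With an equal number of highest-scoring peaks there were 528 gained regions, 10.8% with a CTCF match, 0.568% in clusters and 1.33% with a BM3 peak, and 0.869% of genes had one within 5 kb. With peaks above their library's median score there were 1450, of which 19.6% were within 1 kb of a TSS, 24.2% held AP-1, 16.2% CTCF and 2.62% were in clusters, and 2.46% of genes had one. With a BM3 peak required, 13 remained, 38.5% near a TSS, 0% with AP-1, 38.5% with CTCF and 0% in clusters, and 0.0322% of genes had one. With BM4, BM7 and BM8 reduced to 72685 peaks there were 1286, 1.40% in clusters, near 1.84% of genes. Reduced to 51497 peaks there were 295, 8.81% with CTCF, 0% in clusters and 1.02% with a BM3 peak, near 0.487% of genes. The promoter share was 37.7% within 5 kb and 14.35% with protein-coding TSSs. AP-1 was in 22.7% of central 200 bp windows and 28.0% of distal members. Clusters held 1.75% with gaps of 20 kb and 12.85% with 100 kb, and 18.8% of genes had a member within 50 kb. Leaving out 1 library, the number ranged from 2739 to 10679, the promoter share from 14.45% to 18.7%, AP-1 from 17.4% to 31.1%, CTCF from 7.96% to 14.0%, clusters from 6.10% to 31.15%, BM3 peaks from 0.225% to 0.763% and genes from 3.79% to 11.8%. BM4 decided most: without it, 10679 regions met the rule. Without BM7 there were 6385 and without BM8 4389, since the rule then asked for fewer peaks. Outside the members, the promoter difference ranged from -4.53 to 6.16 points and the AP-1 difference from -4.85 to -1.72. The promoter difference reversed without Lats1-CKO luminal replicate 1 (BM3), to -4.53. Depth is unknown, so a missing peak is not shown to be closed chromatin. No paired analysis was possible because the shared replicate numbers are not said to mark a common tumor or day, and the members come from no test.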
